A study of Mus musculus with 4 samples.

Results

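Enzymes that oxidise, conjugate and hydrolyse foreign compounds, the ATP-driven pumps that expel them and the transcription factors that sense them were followed across the 4 arrays of a mouse colon study. The list held 50 genes, drawn up by function with earlier results of these data known. Its shares, set beside those of all genes, are therefore descriptions only. A gene was used when a probe set of the array carried its symbol and no other, and where several did, the one with the highest average signal across the arrays stood for the gene. That gave 48 genes, of 18194 genes named in the same way, and Por and Ces2c were not analysed here. The 48 were 11 cytochromes P450, 21 enzymes of conjugation and hydrolysis, 8 aldehyde, alcohol, aldo-keto and quinone enzymes, 4 ABC pumps and 4 sensors.

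In textbook terms, cytochromes P450 add a reactive oxygen group to a foreign compound. Transferases then attach glutathione, glucuronic acid or sulfate, and ABC pumps move the product or the parent compound out of the cell. The colonic epithelium carries this machinery because it faces dietary and bacterial compounds. The sensors AHR, PXR (gene Nr1i2), CAR (Nr1i3) and NRF2 (Nfe2l2) turn on many of these genes when foreign or electrophilic compounds are present.

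All samples were total RNA from the colon of male mice. The first pair came from H2B-GFP mice, in which a tetracycline-responsive element drives a green fluorescent histone, switched on by doxycycline. Both of its samples had 7 days of doxycycline labelling and then 2 days without the drug, after which epithelial cells of isolated crypts were sorted. GFPhigh cells had kept the label and are labelled non-proliferating, and GFPlow cells had diluted it and are labelled proliferating. The second pair came from mice with doxycycline-inducible β-catenin, the transcriptional effector of Wnt signalling. Dox minus was crypts of mice without the drug, and Dox plus was crypts of mice that drank doxycycline at 2.0 mg/ml for 5 days. Both groups of that pair carried the inducible gene, and since only Dox plus received the drug, doxycycline itself and β-catenin induction cannot be told apart. The driver of the tetracycline transactivator, the form of β-catenin, the strain, the age and the number of mice per array were not stated in the labels used.

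Each group had 1 array, so no difference has a replicate check, no test between groups was possible and no p-value is given. Values are log2 expression per probe set. A value under 5 was treated as background and set to 5, a gene counted as measured in a pair when at least 1 of its arrays reached 5, and a difference of 1 or more on the log2 scale (2-fold) was counted. As a partial scale for technical disagreement, 3712 genes had more than 1 probe set reaching 5 on both GFP arrays. The gap between the differences of the strongest 2 had a median of 0.28 and was under 1 for 93.1% of these genes. Probe sets of a gene share the arrays, so differences in labelling or hybridisation are not part of this gap. In the Dox pair the median gap was 0.31 over 3733 genes. Colonic epithelium was clearly present on all arrays: 27 of 29 absorptive colonocyte markers and all 14 goblet markers reached the floor in the GFP pair, while the Dox pair had 28 and 14. Fibroblast and smooth muscle genes were mostly under it, with 12 of 14 below on both arrays of each pair, Col1a1, Acta2 and Myh11 among them. Leukocyte genes were under the floor on both arrays for 12 of 17 genes in the GFP pair and 9 of 17 in the Dox pair.

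The DNA around the annotated start of 4 genes on which the results turn is printed here, so that the elements named with the sensors can be seen. The genes are Gsta3 (higher in GFPlow and in Dox plus), Abcb1a and Cyp3a13 (lower in both), and Cyp1a1 (under the floor throughout). Each window runs from 250 bases before to 50 bases after the annotated start, 5′ to 3′ on the gene's own strand, from RefSeq on GRCm38.p6. The windows are chr1:21240335-21240634 (plus strand) for Gsta3, chr5:8566841-8567140 (plus) for Abcb1a, chr5:137921570-137921869 (minus) for Cyp3a13 and chr9:57697363-57697662 (plus) for Cyp1a1. Capitals mark the letters of the antioxidant element core TGACNNNGC, which NRF2 is known to bind, or of the AHR element core GCGTG, searched on both strands.
Gsta3: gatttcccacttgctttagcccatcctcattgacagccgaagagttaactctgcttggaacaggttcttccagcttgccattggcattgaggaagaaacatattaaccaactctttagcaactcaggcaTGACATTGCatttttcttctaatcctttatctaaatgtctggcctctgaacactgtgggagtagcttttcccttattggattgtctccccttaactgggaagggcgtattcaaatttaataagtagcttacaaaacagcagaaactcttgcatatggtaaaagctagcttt
Abcb1a: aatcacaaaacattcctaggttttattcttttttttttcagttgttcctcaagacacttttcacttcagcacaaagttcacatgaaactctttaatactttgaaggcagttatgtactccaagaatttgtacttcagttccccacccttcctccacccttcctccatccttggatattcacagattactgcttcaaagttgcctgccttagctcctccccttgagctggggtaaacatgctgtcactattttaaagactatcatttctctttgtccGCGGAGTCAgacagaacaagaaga
Cyp3a13: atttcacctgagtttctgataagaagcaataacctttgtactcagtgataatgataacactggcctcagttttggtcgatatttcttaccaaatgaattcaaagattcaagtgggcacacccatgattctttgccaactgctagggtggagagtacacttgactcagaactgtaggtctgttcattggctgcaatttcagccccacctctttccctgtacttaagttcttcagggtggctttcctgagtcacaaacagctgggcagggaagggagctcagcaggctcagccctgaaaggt
Cyp1a1: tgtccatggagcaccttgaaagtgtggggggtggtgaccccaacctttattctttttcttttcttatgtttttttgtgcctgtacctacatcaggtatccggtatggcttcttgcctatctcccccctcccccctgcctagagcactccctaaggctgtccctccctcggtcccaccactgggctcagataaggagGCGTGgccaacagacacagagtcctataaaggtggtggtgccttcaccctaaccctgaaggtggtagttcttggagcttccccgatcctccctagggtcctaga
The Gsta3 window holds TGACATTGC, starting at base 130 of the window. The Abcb1a window holds GCGGAGTCA, the antioxidant core read from the other strand, starting at base 277. That is position 27 counted from the annotated start, so this match lies downstream of the start. In Cyp1a1, the classical AHR target, GCGTG starts at base 197, and neither motif is spelled in the Cyp3a13 window. Windows were at hand for 41 of the 48 genes, 48 windows in all. The antioxidant core lay in 7 of them (14.6%), those of Abcb1a, Cyp2c65, Cyp2j6, Gsta3, Gstm5, Mgst1 and Nfe2l2, against 12.4% of all 32851 windows of that length. The AHR core lay in 14 (29.2%) against 32.4% of all windows. The longer AHR element TNGCGTG, which contains the core, lay in 1, that of Aldh3a2, against 5.07% of all windows. A match is a description of the letters and not evidence of binding.

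**Figure D1:**
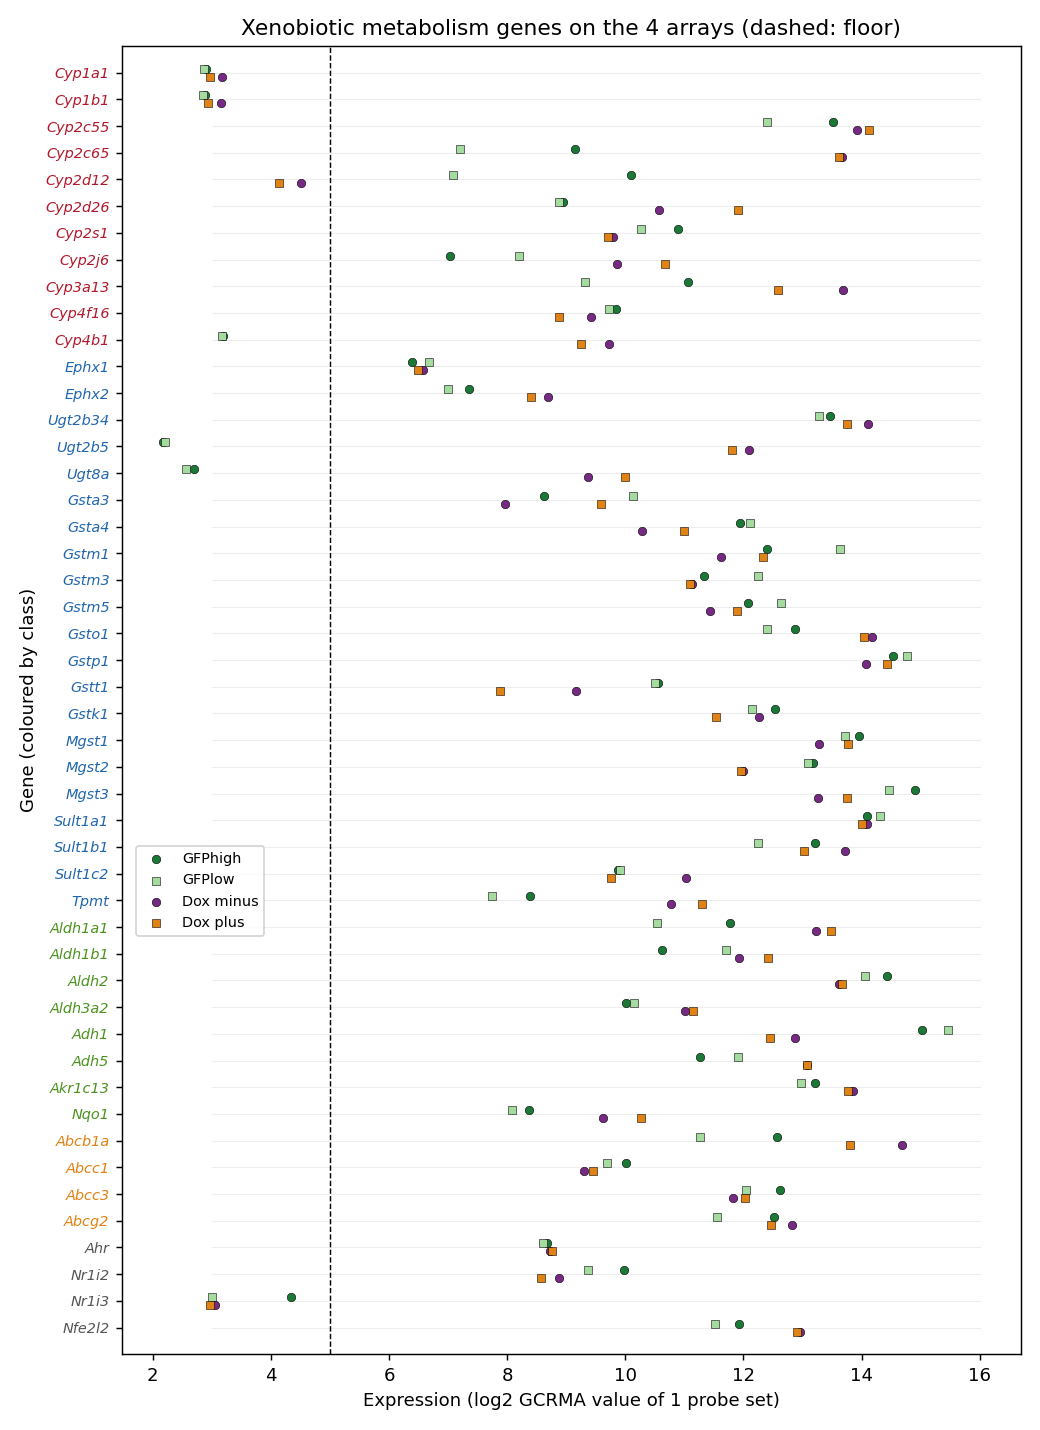
Expression of the 48 genes on the 4 arrays, as the log2 GCRMA value of 1 probe set per gene, with gene names coloured by class and a dashed line at the floor of 5. Cyp1a1, Cyp1b1 and Nr1i3 lie left of the line on every array, and Ugt2b5, Ugt8a and Cyp4b1 lie left of it on the GFP arrays only, and Cyp2d12 on the Dox arrays only.

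The first comparison asked how proliferating and non-proliferating crypt cells differ in this machinery. Several P450 enzymes, Aldh1a1 and the efflux pump Abcb1a were lower in the proliferating cells, by 2.18-fold to 8.09-fold. In contrast, Gsta3, Gstm1, Cyp2j6 and Aldh1b1 were higher, by 2.13-fold to 2.87-fold. Past 2-fold upwards in GFPlow were 4 of the 42 measured genes (9.52%), close to the 8.81% of all 9381 genes measured in this pair. Past 2-fold downwards were 6 (14.3%), against 4.3% of all genes. Below 0 lay 28 of the 42 (66.7%) and above it 14, against 46.8% and 53.2% of all genes, and the median was -0.23 against 0.04. With the mean of a gene's probe sets in place of its strongest one, the median was -0.11 and the count of higher genes 2 instead of 4, and without probe sets that can match several transcripts the median was -0.10. Fewer cells of a type and less RNA per cell cannot be told apart in such bulk samples.

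Of the 8 measured genes of the P450 class, 4 were at least 2-fold lower and 1 at least 2-fold higher, against 4.3% and 8.81% of all genes. The class median was -0.88. Without probe sets that can match several transcripts it was -0.63, above the -0.77 of the ABC pumps, which it otherwise lay below. Cyp2d12, a member of the CYP2D drug-oxidising subfamily, read 10.10 in GFPhigh and 7.08 in GFPlow, a difference of -3.02 (8.09-fold). Only 2 of the 9381 measured genes had a lower difference. Cyp2c65 read 9.15 in GFPhigh and 7.19 in GFPlow, a difference of -1.96 (3.89-fold). It belongs to the CYP2C subfamily, known for oxidising drugs and arachidonic acid, and its probe set is of the kind that can match related transcripts. Cyp2c55 of the same subfamily differed less, from 13.52 to 12.39 (-1.13, 2.18-fold). Cyp3a13, a mouse CYP3A enzyme of the subfamily that oxidises the widest range of drugs, read 11.06 in GFPhigh and 9.32 in GFPlow (-1.74, 3.33-fold). It was the only CYP3A gene of 5 on the array to reach the floor. Cyp2j6, from a subfamily that forms epoxides of arachidonic acid, went the other way, from 7.04 in GFPhigh to 8.20 in GFPlow (1.16, 2.24-fold). Its other probe set gave 1.12.

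Cyp2s1 differed by -0.63, Cyp4f16 by -0.11 and Cyp2d26 by -0.07. The last 2 differences are smaller than the typical gap between probe sets of a gene, and a further Cyp4f16 probe set gave 0.75. Cyp1a1, Cyp1b1 and Cyp4b1 were under the floor in both sorted populations. Cyp1a1 and Cyp1b1 are the best known AHR targets, and neither exceeded 3.17 on any of the 4 arrays.

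Among the conjugating enzymes the glutathione transferases of the alpha and mu classes were above 0 in GFPlow. Gsta3, an alpha-class enzyme active on lipid peroxidation products and carcinogens, read 8.62 in GFPhigh and 10.14 in GFPlow, a difference of 1.52 (2.87-fold). Its weaker probe set, under the floor in GFPhigh, gave at least 0.26, which brings the mean of the probe sets to 0.89. Gstm1, an abundant mu-class enzyme, read 12.41 in GFPhigh and 13.64 in GFPlow (1.23, 2.35-fold). Of its 3 measured probe sets, the others gave 1.11 and 0.02, and the mean was 0.79. Gstm3 (0.91), Gstm5 (0.55), Gsta4 (0.17) and Gstp1 (0.23) were also above 0, none of them past 2-fold. Below 0 lay Gstt1 (-0.04), the mitochondrial and peroxisomal Gstk1 (-0.39) and Gsto1 (-0.47, with a further probe set at 0.22). The membrane-bound Mgst1, Mgst2 and Mgst3, which reduce lipid peroxides, differed by -0.23, -0.09 and -0.43. Sulfotransferases were uneven. Sult1b1, which sulfates small phenols and thyroid hormone, read 13.20 in GFPhigh and 12.24 in GFPlow (-0.96), just short of 2-fold, while Sult1a1 differed by 0.21 and Sult1c2 by 0.03.

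Ugt2b34, a glucuronosyltransferase, read 13.46 in GFPhigh and 13.29 in GFPlow (-0.17, with 0.05 in its other probe set). Ugt2b5 and Ugt8a were under the floor in both. The epoxide hydrolases Ephx1 (0.30) and Ephx2 (-0.35) and the thiopurine methyltransferase Tpmt (-0.65) stayed short of 2-fold. The direction for Tpmt was not settled, since its other measured probe sets gave 0.52 and at least 0.65. Over the 19 measured genes of the class the median was -0.04, and it became 0.03 when probe sets were averaged and 0.17 when those that can match several transcripts were dropped, so the class had no common direction.

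Among the aldehyde and alcohol enzymes, the cytosolic Aldh1a1, which oxidises retinaldehyde and drug aldehydes, read 11.77 in GFPhigh and 10.54 in GFPlow (-1.22, 2.33-fold). The mitochondrial Aldh1b1 went the opposite way, from 10.62 to 11.71 (1.09, 2.13-fold). Both enzymes belong to the ALDH1 family. The others were within 2-fold: Adh5 (0.64), Adh1 (0.43), Aldh3a2 (0.14), Akr1c13 (-0.24), the quinone reductase Nqo1 (-0.28) and Aldh2 (-0.37, with other probe sets between -0.56 and 0.14).

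All 4 efflux pumps were lower in GFPlow, where 46.8% of all genes were, with a median of -0.77. Outside the list, 11 of 16 measured ABC genes were below 0 and 5 above it, the exporter Abcc4 being the highest (1.16). Abcb1a, one of the mouse P-glycoprotein genes, read 12.57 in GFPhigh and 11.27 in GFPlow (-1.31, 2.47-fold), and its other probe set gave -0.78. Abcg2, the pump known as breast cancer resistance protein, fell just short of 2-fold, with 12.53 in GFPhigh and 11.56 in GFPlow (-0.97). Abcc3 (-0.57) and Abcc1 (-0.32), which export conjugates, differed less. Of the sensors, Nr1i2 differed by -0.61, Nfe2l2 by -0.41 and Ahr by -0.08, and Nr1i3 was under the floor in both. Absorptive colonocyte markers moved alongside these genes. Of 27 measured, 24 were lower in GFPlow and 10 at least 2-fold so, with a median of -0.80, and their summed level was 18.78 in GFPhigh and 18.24 in GFPlow (log2 of the summed linear values). Proliferation markers moved the other way, with all 11 higher in GFPlow at a median of 2.35, and goblet markers had a median of 1.35. Enteroendocrine markers were lower for 7 of 8 measured genes, 4 at least 2-fold, with a median of -0.96, and interferon-stimulated genes for 10 of 13, with a median of -0.66. The part of these marker shifts in the differences above was not tested.

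**Figure D2:**
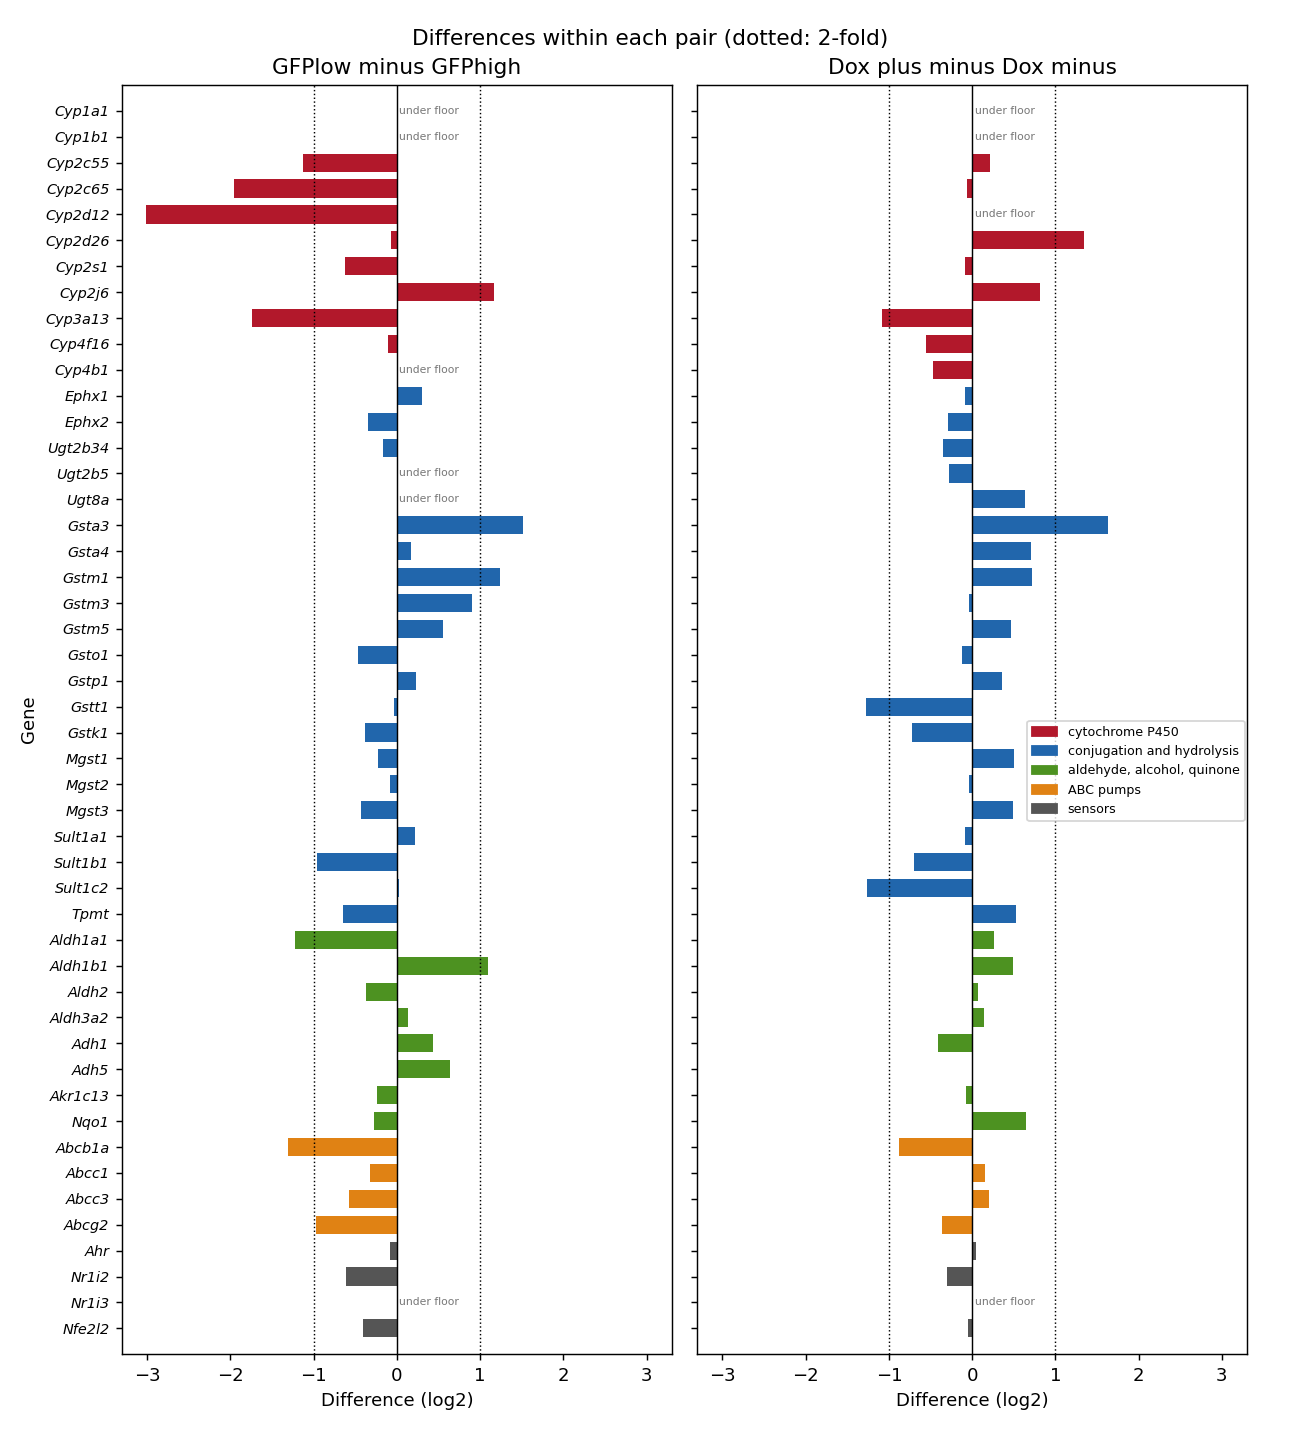
Difference of each gene within the GFP pair (left) and the Dox pair (right), in log2 units, coloured by class, with dotted lines at 2-fold; genes under the floor on both arrays of a pair have no bar. Left of the left panel's lower dotted line stand Cyp2d12, Cyp2c65, Cyp3a13, Abcb1a, Aldh1a1 and Cyp2c55.

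The second comparison asked how crypts differ after 5 days of doxycycline in mice able to make extra β-catenin. Fewer of these genes were past 2-fold than in the first pair: Gsta3 and Cyp2d26 were higher in Dox plus, and Gstt1, Sult1c2 and Cyp3a13 lower. Of 44 measured genes, 2 were at least 2-fold higher (4.55%) and 3 at least 2-fold lower (6.82%), near the 6.93% and 5.35% of all 9537 genes measured in this pair. Below 0 lay 23 of the 44 (52.3%) and above it 21, against 45.0% and 55.0% of all genes. The median was -0.04, against 0.06 for all genes, and 28 of the 44 lay within 0.5 of 0.

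Gsta3 read 7.96 in Dox minus and 9.59 in Dox plus, a difference of 1.63 (3.10-fold). Its weaker probe set was under the floor on both Dox arrays. Gstm1 (0.71), Gsta4 (0.71), Mgst1 (0.50), Mgst3 (0.49), Gstm5 (0.47) and Gstp1 (0.36) were above 0 within 2-fold. Other measured probe sets gave 0.66 and -0.02 for Gstm1 and 1.06 for Mgst3. Gstt1, a theta-class transferase that acts on small halogenated compounds, read 9.16 in Dox minus and 7.88 in Dox plus (-1.28, 2.43-fold). Gstk1 differed by -0.72, Gsto1 by -0.12, and Mgst2 and Gstm3 by -0.04 each. The glutathione transferases were thus split, with Gsta3 and Gstt1 at the ends.

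Sult1c2 had the largest sulfotransferase difference, with 11.02 in Dox minus and 9.76 in Dox plus (-1.26, 2.40-fold). Sult1b1 was lower by a smaller amount (-0.69) and Sult1a1 differed by -0.08. The glucuronosyltransferases that were under the floor in the sorted cells were measured here. Ugt2b5 read 12.09 in Dox minus and 11.81 in Dox plus (-0.28). Ugt8a, which adds galactose to ceramide rather than glucuronic acid to drugs, read 9.37 and 9.996 (0.63), and the difference was 1.01 as the mean of its probe sets. Ugt2b34 (-0.35), Ephx2 (-0.29) and Ephx1 (-0.09) were within 2-fold, and Tpmt differed by 0.52 with other probe sets between -0.52 and 0.51.

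Among P450 enzymes, Cyp2d26 read 10.56 in Dox minus and 11.91 in Dox plus (1.35, 2.54-fold), while in the sorted cells it had differed by -0.07. Cyp3a13 was again lower, at 13.68 in Dox minus and 12.59 in Dox plus (-1.09, 2.12-fold). Cyp2j6 was again above 0 (0.81, with 0.33 in its other probe set). The CYP2C genes that were lower in GFPlow were close to level here. Cyp2c55 read 13.92 in Dox minus and 14.13 in Dox plus (0.22). Cyp2c65 read 13.67 and 13.61 (-0.06). Cyp4f16 (-0.55), Cyp4b1 (-0.47) and Cyp2s1 (-0.09) were within 2-fold, and Cyp2d12 was under the floor on both Dox arrays.

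No aldehyde, alcohol or quinone enzyme and no pump was past 2-fold. Nqo1, a quinone reductase and common readout of NRF2, read 9.62 in Dox minus and 10.27 in Dox plus (0.65). Aldh1b1 differed by 0.49, Aldh1a1 by 0.26, Aldh3a2 by 0.14, Adh5 by 0.01, Akr1c13 by -0.08 and Adh1 by -0.41. For Aldh2 the probe sets disagreed: the strongest read 13.61 and 13.68 (0.07), a weaker one 6.93 and 5.12 (-1.81), and another, under the floor in Dox plus, gave -1.83 as a bound, so that the mean of its probe sets was -1.19. Abcb1a was the lowest of the pumps, with 14.68 in Dox minus and 13.80 in Dox plus (-0.88), while its other probe set gave -0.72 and a weaker Abcc1 probe set gave 0.997 as a bound. Abcg2 (-0.36), Abcc1 (0.16) and Abcc3 (0.21) lay closer to 0. The sensors Ahr (0.04), Nfe2l2 (-0.05) and Nr1i2 (-0.31) were within 2-fold as well. Absorptive colonocyte markers were lower in Dox plus for 23 of 28 measured genes, 3 past 2-fold, with a median of -0.48 and a summed level of 18.39 in Dox minus and 18.03 in Dox plus. All 14 measured interferon-stimulated genes were at least 2-fold lower (median -4.21), and 8 of 11 Wnt target and stem cell genes at least 2-fold higher (median 1.77). Proliferation markers, all higher in GFPlow, were here below 0 for 7 of 11 genes and above it for 4. Of these, 2 were at least 2-fold lower, and the median was -0.34. Goblet markers were lower for 12 of 14 genes (5 past 2-fold, median -0.62) and enteroendocrine markers for 11 of 12 (10 past 2-fold). The part of these shifts in the xenobiotic genes was not tested.

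Set side by side, 41 of the genes were measured in both pairs, which share no array. Of these, 9 were above 0 in both, 16 below 0 in both, 5 higher in GFPlow but lower in Dox plus, and 11 the reverse. The same sign was thus found for 61.0%, against 66.1% of all 9023 genes measured in both pairs. Gsta3 was at least 2-fold higher in both pairs and Cyp3a13 at least 2-fold lower in both. With the mean of its probe sets, Gsta3 stayed short of 2-fold in the GFP pair. No gene of the list was past 2-fold in opposite directions. Of all 9023 genes, 183 were at least 2-fold higher in both pairs, 72 at least 2-fold lower in both and 81 past 2-fold in opposite directions. Abcb1a followed Cyp3a13 in sign (-1.31 and -0.88), as did Sult1b1 (-0.96 and -0.69). Cyp2j6, Gstm1 and Aldh1b1 followed Gsta3 in sign, with 0.81, 0.71 and 0.49 in the Dox pair. Across the 41 genes the differences correlated at Pearson r = 0.455, and across all 9023 at 0.291, given as descriptions because genes are not independent replicates.

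**Figure D3:**
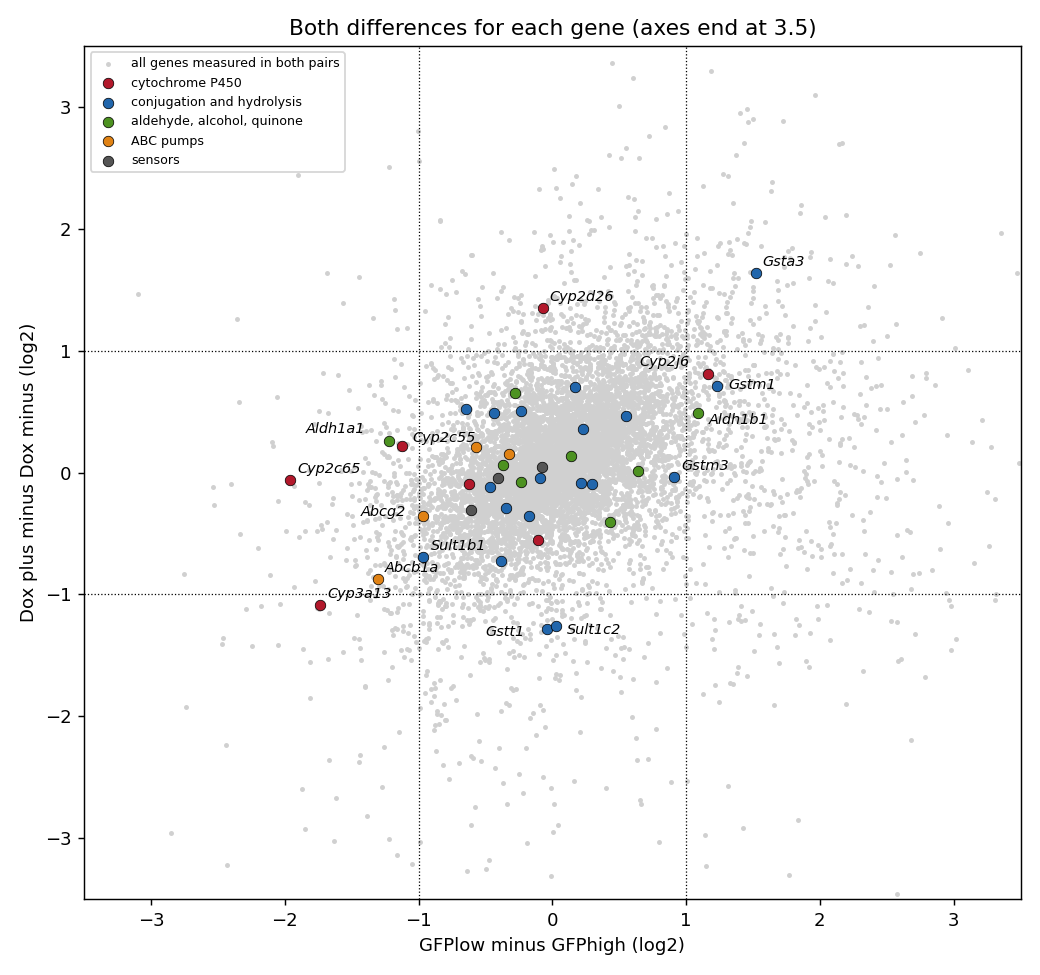
Difference in the GFP pair (horizontal, log2) against difference in the Dox pair (vertical, log2) for 41 xenobiotic genes, coloured by class, over all 9023 genes measured in both pairs (grey; 31 of them lie beyond the axes). Gsta3 stands at the upper right and Cyp3a13 at the lower left, past the dotted 2-fold lines on both axes.

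A few genes reached the floor in one pair and not in the other. Ugt2b5 read 2.17 in GFPhigh and 2.20 in GFPlow, against 12.09 and 11.81 in the Dox pair. Ugt8a read 2.70 and 2.57 in the sorted cells and Cyp4b1 3.18 and 3.17, while Cyp4b1 read 9.73 in Dox minus and 9.25 in Dox plus. Cyp2d12 showed the opposite, with 10.10 and 7.08 in the sorted cells and 4.51 and 4.14 in the Dox pair. In all, 41 genes reached the floor in both pairs, 3 in the Dox pair only, 1 in the GFP pair only and 3 in neither. The pairs came from different mouse lines, only the first was sorted, and their control probe sets differed too (18S ribosomal RNA averaged 13.03 and 13.29 in the GFP pair and 3.25 and 2.56 in the Dox pair), so mouse line, preparation and array handling cannot be told apart. Of the 29 absorptive colonocyte markers, 27 reached the floor in both pairs and 1 in neither. The remaining 1, Slc51a, a bile acid exporter subunit, read 2.51 and 2.50 in the sorted cells and 9.92 and 9.10 in the Dox pair, and is named after its values were seen.

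The whole gene families were then examined, to see whether the listed genes stood for their relatives. Of 70 P450 genes on the array 21 were measured in the GFP pair, with a median of -0.63. Of these, 17 were below 0, 9 at least 2-fold lower and 3 at least 2-fold higher. Over all genes measured in this pair, 46.8% were below 0, 4.3% at least 2-fold lower and 8.81% at least 2-fold higher. Leaving out the listed genes, 10 of 13 were below 0 and 5 at least 2-fold lower. Cyp2d13 (-1.70) and Cyp2d22 (-1.54) were among the lowest, and Cyp39a1, an oxysterol hydroxylase of bile acid synthesis, was the highest (1.46). All 7 measured CYP2D genes were lower in GFPlow, 5 at least 2-fold. In the Dox pair the same subfamily was spread from -1.28 (Cyp2d10) to 2.80 (Cyp2d9, 6.95 in Dox minus and 9.75 in Dox plus). The P450 family median there was -0.33 over 20 genes. CYP2D genes are close copies of each other, and how far their probe sets share transcripts was not tested.

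Of the glutathione transferases, all 7 mu-class genes were above 0 in GFPlow, from 0.21 to 1.56, the highest being Gstm4 (6.93 in GFPhigh and 8.49 in GFPlow). In the Dox pair 4 of the 7 were above 0, with a median of 0.04. Over the whole family of 21 measured genes, 13 were above 0 in each pair, not far from the 53.2% and 55.0% of all genes, and the medians were 0.23 and 0.47. The second of these was 0.09 without probe sets that can match several transcripts. Mu-class genes are likewise close copies, so their values may not be independent. All 4 measured carboxylesterases of the Ces2 group, which hydrolyse ester drugs, were below 0 in GFPlow, Ces2b (-1.38) and Ces2e (-1.21) past 2-fold. In Dox plus 3 of 4 were below 0, with Ces2e at -1.15. Over all 8 measured carboxylesterases the medians were -0.31 and -0.09. Of these 8, 7 were below 0 in GFPlow and 4 in Dox plus, against 46.8% and 45.0% of all genes. Ces1e went the other way in GFPlow (0.85). The CYP2D, mu-class and Ces2 groupings were made after their values were seen.

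Sulfotransferases outside the list, Sult2b1 (-1.13) and Sult1d1 (-1.05), were also at least 2-fold lower in GFPlow. All 6 measured members of the family were below 0 in Dox plus (-1.26 to -0.06, 1 of them a bound), where 45.0% of all genes were. Of 20 ABC family genes measured in the GFP pair, 15 were below 0, against 46.8% of all genes. In the Dox pair 8 of 20 were, against 45.0%. The family name takes in Abce1, Abcf1, Abcf2 and Abcf3, which are not membrane transporters. They differed by 0.72, 0.22, 0.80 and -0.07 in the GFP pair and by 0.90, 0.54, 0.78 and 0.19 in the Dox pair. Abcg5, which exports plant sterols, had the lowest value of the family in the GFP pair (-2.40, from 10.20 in GFPhigh to 7.80 in GFPlow). Abcc4, an exporter of conjugates and cyclic nucleotides, was higher in both pairs, by 1.16 and 1.20. Cbr2, a carbonyl reductase, was likewise higher in both (1.15 and 1.40), whereas the aldo-keto and carbonyl reductases as a family had medians of 0.11 and 0.16. Aldehyde dehydrogenases had medians of -0.06 and 0.22, with Aldh18a1, which makes a proline precursor, at 1.68 in the GFP pair. The glucuronosyltransferase family had 2 of 11 genes measured in the GFP pair, Ugt2b34 (-0.17) and Ugt2b35, which is outside the list. Ugt2b35 read 8.86 in GFPhigh and 9.95 in GFPlow (1.08, 2.12-fold) and differed by 0.56 in the Dox pair. There, 5 genes of the family were measured, 2 above 0 and 3 below.

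**Figure D4:**
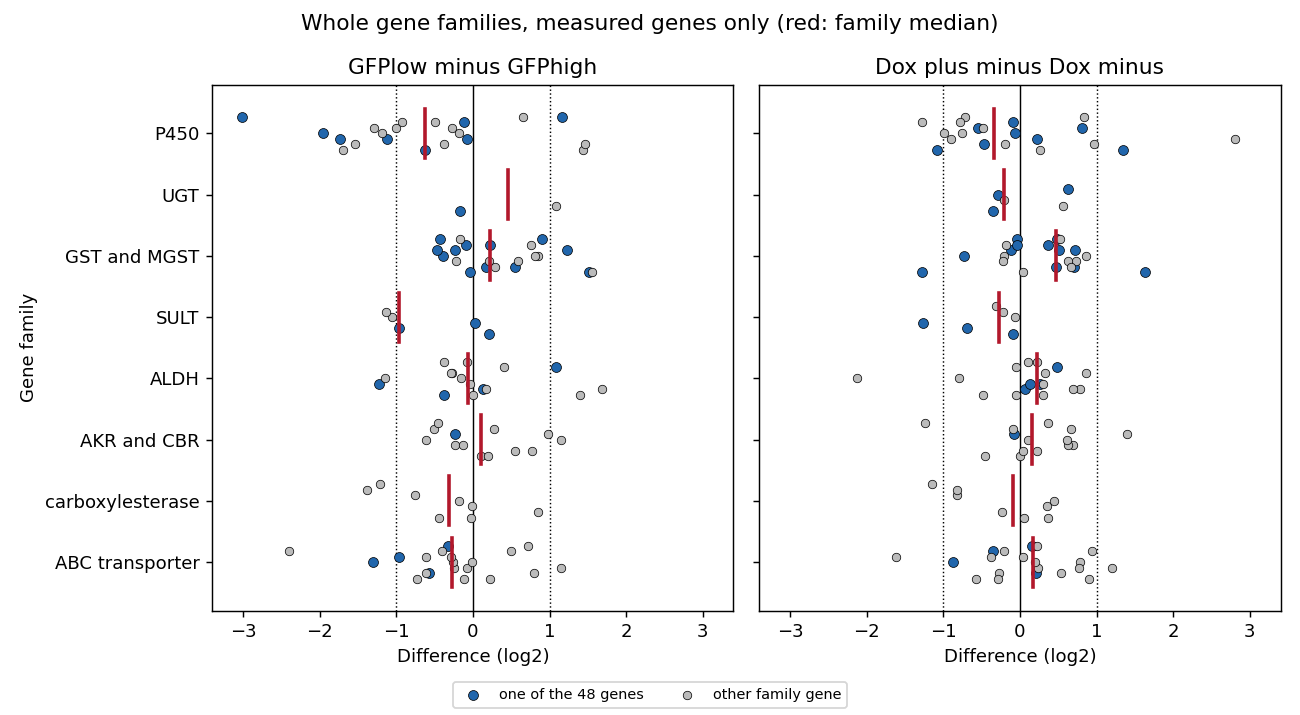
Differences of all measured genes of 8 families in the GFP pair (left) and the Dox pair (right), in log2 units; blue points are listed genes, grey points other family genes, red lines family medians and dotted lines 2-fold. In the left panel 17 of 21 P450 genes lie left of 0 and 13 of 21 transferases of the glutathione family lie right of it.

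Among genes known to act with the sensors, each list had more genes below 0 than above it in GFPlow. The medians there were -0.04 (AHR), -0.17 (NRF2) and -0.27 (PXR and CAR), and 46.8% of all genes were below 0. In the Dox pair, where 45.0% of all genes were below 0, the lists had no common direction. Of 10 AHR partners and targets, 6 had a probe set and 3 were measured. None was past 2-fold in either pair, and Tiparp, an AHR-induced repressor, was the furthest from 0 in the GFP pair (-0.81). The AHR targets Ahrr, Cyp1a2 and Aldh3a1 were under the floor on all 4 arrays, as were Cyp1a1 and Cyp1b1. Ahr itself read between 8.60 and 8.76.

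Of the NRF2 list 22 genes were measured in the GFP pair, with 6 above 0, 16 below and a median of -0.17. Gpx2, the gastrointestinal glutathione peroxidase, was the one gene of that list at least 2-fold higher in GFPlow (1.44, from 13.01 to 14.45), and the small Maf partners Mafk (-1.12) and Maff (-1.11) were at least 2-fold lower. In the Dox pair 24 were measured, 14 above 0, with a median of 0.10, or 0.38 over 19 genes without probe sets that can match several transcripts. Gsr, which regenerates glutathione, read 9.64 in Dox minus and 11.26 in Dox plus (1.62, 3.07-fold). Hmox1, heme oxygenase, was under the floor in Dox minus and read 7.72 in Dox plus, at least 2.72 higher, and is named after its value was seen. Osgin1 (-1.49) and Mafk (-1.26) were lower. The glutathione synthesis genes Gclm (0.85), Gss (0.73) and Gclc (0.46), also named after their values were seen, were above 0 within 2-fold. Nfe2l2 itself differed by -0.41 and -0.05.

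Of 13 PXR and CAR partners and targets with a probe set, 7 were measured in the GFP pair, 6 of them below 0 with a median of -0.27. Their hepatic P450 targets Cyp3a11, Cyp3a25, Cyp2b10 and Cyp2c29 were under the floor on all 4 arrays. Rxra, the shared partner receptor, differed by -0.68 between the sorted cells and by -0.36 between the Dox arrays. In the Dox pair 8 were measured, and the coactivator Ncoa3 alone was past 2-fold (-1.28). Of 9 liver markers 4 reached the floor in each pair, and they went different ways in the GFP pair: Ttr differed by 2.11 (11.25 in GFPhigh and 13.36 in GFPlow) and Tat by -2.47 (9.78 and 7.31). The liver markers Fgb, Ahsg, Apoh and Cyp2e1 were under the floor on every array.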

How the data were processed

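Total RNA of 4 samples was labelled with biotin and hybridised to 1 array each, per the labels' protocols. The authors deposited log2 values for 45101 probe sets, and GCRMA is the tool named in the submitters' processing notes, without a version and without saying which arrays went through it jointly. GCRMA subtracts a modelled background, so low values carry little information. With 1 array a group, precision is limited by their number. A platform annotation gave 34958 probe sets 1 symbol, 932 several and 9211 none; only the first were used. Differences were taken within a pair after setting values under 5 to 5 (Python 3.11.15, pandas 2.3.3). The code was run on simulated arrays with known added differences. That run checks the code only, since no variation between mice was simulated. Alternatives were floors of 4 and 6, no floor, quantile normalization, loess (span 0.4, statsmodels 0.14.6), the mean of probe sets, dropping probe sets that can match several transcripts (suffixes _a_at, _s_at, _x_at), and a 3-fold threshold. The genes and lists were chosen with earlier results of these data known. After the values were seen, the aldehyde dehydrogenase name pattern was corrected to take in Aldh2, subfamilies were summarised, the printed promoters were picked, the alternatives were widened from the genes past 2-fold to all listed genes and list medians, and a median was counted as moved at 0.25 or more. All listed genes are named; of each pathway list and family, up to 3 further genes with the largest difference may be named if both arrays of a pair reach the floor, and up to 2 per marker list. Genes named outside that rule, including those given as under the floor, were chosen after their values were seen. Array controls served as a check.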

Additional observations from a re-analysis of the deposited data

How the results depend on the processing

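With a 3-fold threshold the counts became 0 higher and 3 lower in GFPlow, and 1 higher and 0 lower in Dox plus. With the mean of probe sets 2 genes instead of 4 were at least 2-fold higher in GFPlow, since Gsta3 became 0.89 and Gstm1 0.79. The same setting reversed Aldh2 in the Dox pair, from 0.07 to -1.19, and put Ugt8a past 2-fold at 1.01; these 4 were the exceptions among 590 values of single genes under the alternatives, the other 586 keeping their side of the threshold. The cause was not tested. The medians over the listed genes stayed within 0.25 of -0.23 and -0.04 under the alternatives run. Of 413 values of list medians, 33 moved by 0.25 or more, among them the P450 class in the GFP pair (-0.63 without probe sets that can match several transcripts), the sulfotransferases (-0.53 with a floor of 4) and the carboxylesterases (-0.60 without a floor). Over all genes past 2-fold in the Dox pair, 56.4% were higher in Dox plus as deposited and 45.1% with loess. No paired analysis was possible because each group had 1 array and the labels give no replicate numbers. Differences of low genes are limited by the background.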

Other observations

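Single genes among the transporters of nutrients and drugs and the suppliers of conjugation cofactors were past 2-fold. Slc35d1, which carries UDP-glucuronic acid into the endoplasmic reticulum where glucuronidation takes place, read 10.32 in GFPhigh and 8.88 in GFPlow (-1.44), and 12.31 in Dox minus and 9.99 in Dox plus (-2.32, 4.99-fold). Ugdh, which makes UDP-glucuronic acid, differed by -0.86 and -0.16. The cofactor list also held transferases that use a cofactor, Nat2 among them. Of its 12 measured genes 9 were below 0 in GFPlow, where 46.8% of all genes were, and 1 was past 2-fold (8.33%, against 13.1% of all genes). Of 11 measured in the Dox pair 7 were below 0, where 45.0% of all genes were, and 2 were past 2-fold (18.2%, against 12.3%). Nat2, an arylamine acetyltransferase and not a cofactor supplier, was 1 of these 2 (-1.06).

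Slc15a1, the proton-coupled peptide transporter that also takes up some antibiotics, read 10.78 in Dox minus and 7.57 in Dox plus (-3.21, 9.26-fold). It was lower in GFPlow too, with 10.70 in GFPhigh and 9.65 in GFPlow (-1.05). The prostaglandin transporter Slco2a1 was lower in both pairs (-1.44 in each), and the nucleoside transporter Slc29a1 was higher in both (2.05 and 1.32). Over the list of uptake and other efflux transporters, 7 of 10 measured genes were below 0 in GFPlow and 6 of 11 in Dox plus, against 46.8% and 45.0% of all genes. In each pair 2 were at least 2-fold higher and 2 at least 2-fold lower. That is 40.0% and 36.4% past 2-fold, against 13.1% and 12.3% of all genes. Aldh1a3, which makes retinoic acid, was under the floor in GFPlow and in Dox plus, with differences of -1.15 and -2.13 as bounds, and is named after its values were seen.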
